A study of Mus musculus with 36 samples.

Results

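The 37 genes described here code for chemokines, cytokines, interferon-stimulated proteins, interferon transcription factors and proteins of antigen presentation. They were chosen by name out of 51734 gene symbols in a count table, selected on the differences in their counts between the groups of the 18 libraries used here. The values below are therefore a description, and the counts of genes past a threshold among them are not a test. By role the list holds 16 chemokines, 3 cytokines, 8 interferon-stimulated effectors, 4 transcription factors and 6 antigen presentation genes. Of the 37 genes, 31 had enough counts to be tested. The chemokines Ccl5, Ccl9, Ccl11, Ccl17, Ccl20 and Cxcl2 did not, and are given by their counts alone.

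The libraries came from E14, a mouse embryonic stem cell (ESC) line, and from neural precursor cells (NPC) made from it with RA, harvested on day 4. RNA was sequenced after polyA selection with a strand-specific kit. The 6 groups of 3 libraries were ESC and NPC of wild type (WT), of an MLL3/4 dCD line (dCD) and of an MLL2 dTAG line (MLL2dTAG). MLL3 and MLL4 are the histone H3 lysine methyltransferases of enhancers, and the series title places their enzymatic activity at the centre of the study. MLL2 is a related enzyme that acts mostly at promoters. A dTAG degron marks a protein for degradation once dTAG-13 is added, and RNA counts cannot check that loss. The labels give dTAG-13 for all 18 libraries, WT included, at 2 µM from day 1 of differentiation for the NPC. How long ESC were treated is not given in the sources used here. Each genotype is taken to be 1 line as labelled, so a line and its genotype cannot be told apart. Nothing in the labels says that replicates came from separate cultures, so p-values measure only the spread between these libraries, which may be technical.

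Chemokines are small secreted proteins that draw cells along a gradient through G protein-coupled receptors, and many of their genes lie side by side and respond to NF-kB. Interferons bind surface receptors that activate transcription factors, among them STAT2 and IRF9. Complexes of these factors bind a DNA element called the interferon-stimulated response element (ISRE) near antiviral genes. Class I antigen presentation shows peptides from the immunoproteasome, carried by the TAP transporter, on H2 molecules paired with beta-2-microglobulin. Mouse embryonic stem cells are known for a weak interferon response, which grows as they differentiate.

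Total counts per library were 19430860 to 46041277. Levels are counts per 1000000 counts (CPM) after scaling with edgeR's TMM factors, and means are given ± SD over the 3 libraries of a group. Changes are log2 fold changes with their standard error (SE) from edgeR's quasi-likelihood fit of 20511 genes, called at a Benjamini-Hochberg adjusted p under 0.05 over all of them. A list of 10 ESC markers summed to 4073 to 4525 CPM in WT ESC and 33.5 to 34.8 CPM in WT NPC. Of 10 NPC markers 9 were higher in WT NPC, where 39.1% of all genes were. MLL2dTAG NPC kept more of the ESC markers, at 211 to 215 CPM. In these bulk libraries, fewer cells of a type and less RNA per cell cannot be told apart.

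In each comparison, many genes of the genome were called. In ESC, 13 of the 31 genes tested were higher and 11 lower in dCD than in WT, where 25.7% of all genes were called higher and 22.6% lower. MLL2dTAG ESC had the same counts, 13 higher and 11 lower, with 28.7% and 28.2% of all genes. In NPC, dCD had 15 higher and 6 lower, against 26.7% and 26.8% of all genes. MLL2dTAG NPC had 14 higher and 10 lower, against 33.3% and 28.4%. Because the genes were picked with these values known, nothing is read from those shares.

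**Figure D1:**
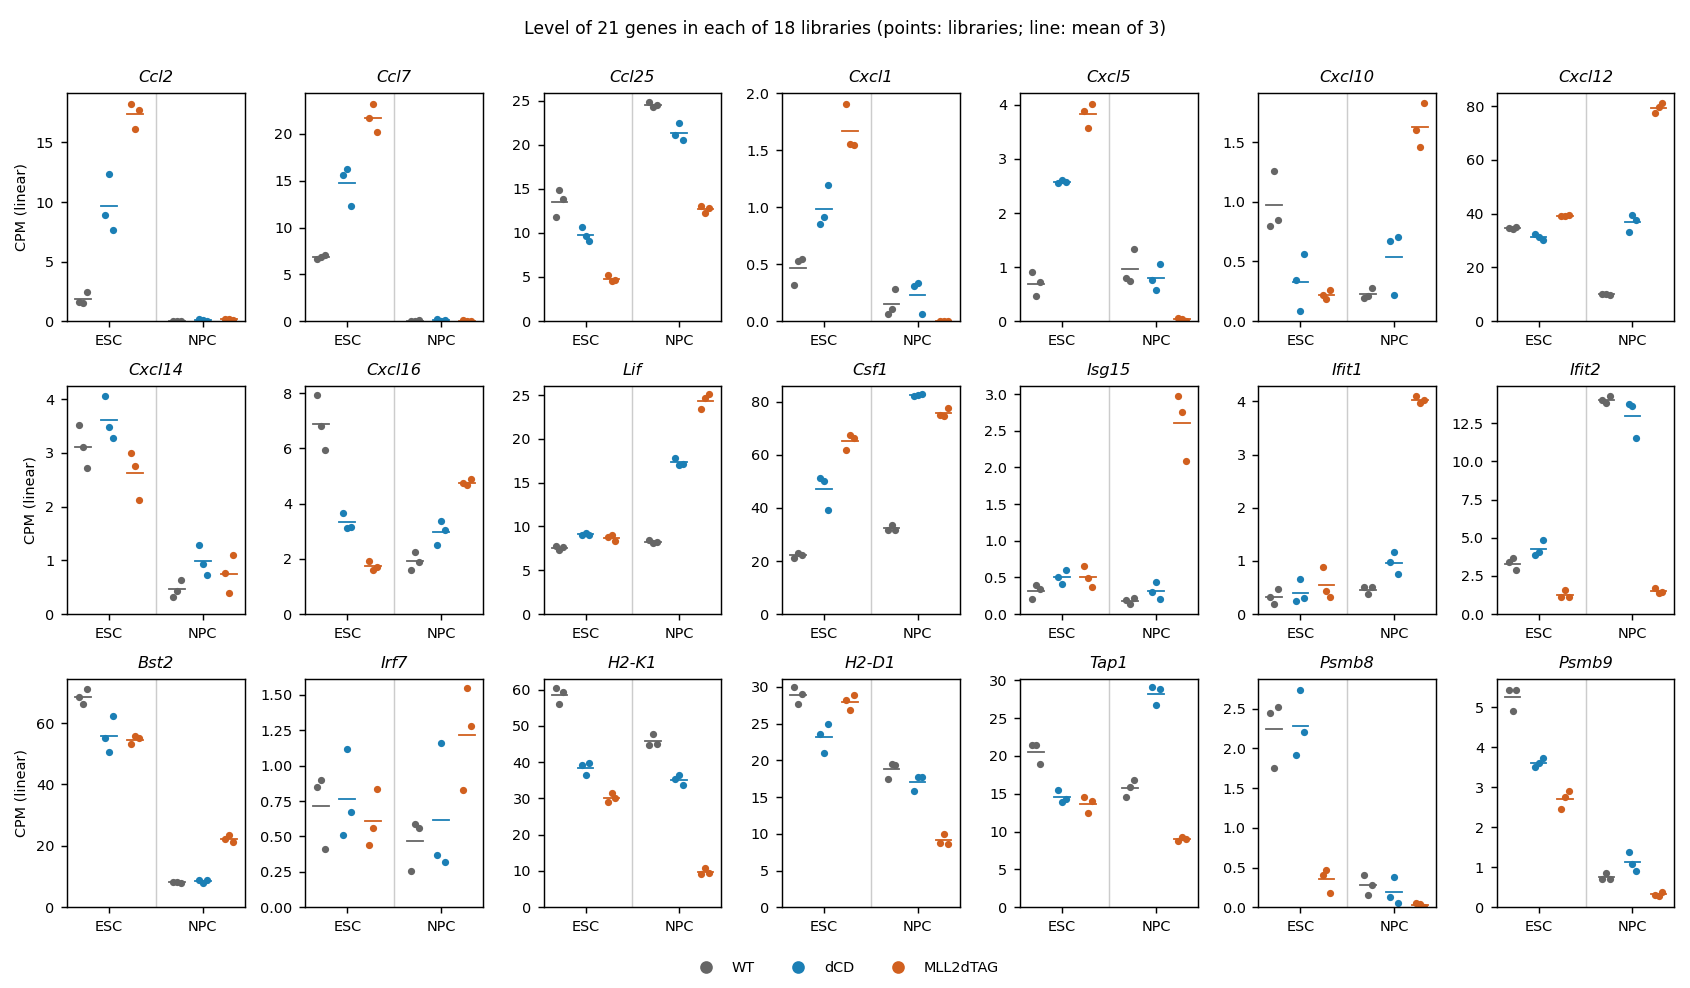
Level in CPM (linear axis from 0) of 21 genes of the list in each of 18 libraries. They averaged 1 CPM or more in some group. In a comparison of lines within a stage they had a call, a log2 change of at least 1 and no overlap. Points are libraries, lines are means of 3, and grey, blue and orange stand for WT, dCD and MLL2dTAG. Ccl2 and Ccl7 were high in edited ESC, while Cxcl12, Isg15, Ifit1 and Bst2 were highest among the NPC groups in MLL2dTAG.

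The neighbouring CC chemokine genes Ccl2 (chr11:82035571-82037453) and Ccl7 (chr11:82045712-82047525) were higher in both edited ESC lines and almost silent in NPC. Both proteins draw monocytes through the receptor CCR2. Positions are from GENCODE M21 on GRCm38. Ccl2 stood at 1.60, 1.53 and 2.45 CPM in the WT ESC libraries, at 8.92, 12.3 and 7.64 CPM in dCD and at 18.2, 16.1 and 17.8 CPM in MLL2dTAG. No ESC library of one genotype overlapped with those of another. The log2 fold change against WT was 2.35 (SE 0.20) in dCD and 3.20 (SE 0.19) in MLL2dTAG. Ccl7 stood at 6.65, 6.90 and 7.07 CPM in WT ESC, at 15.6, 16.2 and 12.3 CPM in dCD and at 21.7, 23.2 and 20.2 CPM in MLL2dTAG, again in 3 separate ranges. Its changes were 1.09 (SE 0.14) and 1.65 (SE 0.13). In NPC, Ccl2 had 0 counts over the 3 WT libraries, 8 in dCD and 18 in MLL2dTAG. Against a floor of 3 counts over the WT group, scaled by library size, Ccl2 was 2.72-fold higher in dCD NPC and 5.37-fold higher in MLL2dTAG NPC. These folds take the counts of the edited groups as exact, so they are no lower bounds. The dCD NPC counts were 6, 2 and 0 in the 3 libraries. The call for dCD NPC was lost with counts halved, without any 1 of the 3 WT NPC libraries, and without dCD NPC replicate 1, where the adjusted p of edgeR's quasi-likelihood test was 0.201. With only the groups compared in the fit, Ccl2 had too few counts to be tested in NPC of either line. Ccl7 stayed at or under 0.0809 CPM on average in every NPC group.

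The third gene of that cluster on the list, Ccl11, which codes for the eosinophil attractant eotaxin, was too low to test. It had 2 counts in WT ESC, 10 in dCD ESC and 16 in MLL2dTAG ESC. The ratio to WT, scaled by library size, was 5.27 in dCD (exact 95% interval 1.12 to 49.4) and 6.41 in MLL2dTAG (1.51 to 57.5). These intervals cover counting error only and take each count as independent. Every ESC library had an even count of Ccl11, and 60.8% to 66.5% of all counts from 1 to 10 were even. The intervals may therefore be too narrow, and no difference is read from them. Ccl8, a monocyte attractant of the same cluster outside the list, was higher in both ESC lines: its level was 0.378 ± 0.165 CPM in WT, 1.41 ± 0.272 CPM in dCD and 1.61 ± 0.327 CPM in MLL2dTAG (adjusted p = 3.2e-04 and 5.7e-05, edgeR quasi-likelihood). Ccl12 had no count in any of the 18 libraries. Among the receptors, Ccr2 stayed at or under 0.0569 CPM on average in every group and was not tested.

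A list of 14 fibroblast and mesenchyme markers moved with these ESC values. Of them, 13 were called higher in dCD ESC, where the remaining one was not called, and all 14 in MLL2dTAG ESC. Of all genes, 25.7% and 28.7% were called higher in these lines. Their summed level was 586 to 725 CPM in WT ESC, 955 to 1057 CPM in dCD and 1052 to 1111 CPM in MLL2dTAG, and no marker of the list was at 0. Col1a2 averaged 229.6, 349 and 376 CPM in WT, dCD and MLL2dTAG ESC. In NPC the summed level was 801 to 819 CPM in WT, 1480 to 1598 CPM in dCD and 1353 to 1366 CPM in MLL2dTAG. There 9 markers were higher and 1 lower in dCD, where 26.7% and 26.8% of all genes were. In MLL2dTAG 7 were higher and 6 lower, against 33.3% and 28.4%. Single genes made up much of these sums. Acta2 averaged 40.5, 541 and 219 CPM in WT, dCD and MLL2dTAG NPC, and Col3a1 295, 426 and 716 CPM. Col1a2 averaged 153, 178 and 21.3 CPM in the same order. The part of such cells in the chemokine and cytokine values was not tested.

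The CXC chemokines of chromosome 5 differed in direction between the stages. Cxcl1 (chr5:90891241-90893115) and Cxcl5 (chr5:90759360-90761624) code for neutrophil attractants that signal through CXCR2, and were higher in edited ESC but lower in MLL2dTAG NPC. Cxcl5 stood at 0.905, 0.464 and 0.714 CPM in WT ESC, at 2.56, 2.61 and 2.57 CPM in dCD ESC and at 3.88, 3.57 and 4.02 CPM in MLL2dTAG ESC. All 3 ranges were apart, with changes of 1.94 (SE 0.29) and 2.5 (SE 0.28). In NPC it stood at 0.791, 0.746 and 1.34 CPM in WT, at 0.767, 0.579 and 1.06 CPM in dCD and at 0.0593, 0.0442 and 0 CPM in MLL2dTAG. WT and dCD NPC overlapped, and every MLL2dTAG library lay below both (-4.67 [SE 0.51] against WT).

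Cxcl1 stood at 0.319, 0.531 and 0.544 CPM in WT ESC, at 0.854, 0.911 and 1.19 CPM in dCD ESC and at 1.91, 1.55 and 1.54 CPM in MLL2dTAG ESC. The groups did not overlap, but the change of 1.04 (SE 0.43) in dCD was called only in part of the alternatives: it was lost with DESeq2, with the replicate number as a block, and without any 1 of the 9 ESC libraries, with adjusted p up to 0.158 (edgeR quasi-likelihood, without dCD ESC replicate 3). The change in MLL2dTAG ESC was 1.79 (SE 0.40). In NPC, Cxcl1 had 16 counts in WT, 24 in dCD and 0 in MLL2dTAG. Against a floor of 3 counts it was 5.96-fold lower in MLL2dTAG than in WT, with the WT count taken as exact. With only the groups compared in the fit, Cxcl1 had too few counts to be tested in NPC. Cxcl2, a further neutrophil attractant of the cluster, had at most 6 counts in any group.

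Between Cxcl5 and Cxcl2, a stretch of 0.147 Mb, 6 genes were tested in all. In MLL2dTAG ESC 4 of the 6 were higher, where 28.7% of all genes were. In MLL2dTAG NPC 5 were lower, where 28.4% of all genes were, and the rest were not called at either stage. Ppbp, which codes for a platelet chemokine, rose in MLL2dTAG ESC by 2.09 (SE 0.30) with an adjusted p of 1.9e-07 (edgeR quasi-likelihood). Cxcl15, a chemokine gene nearly silent in ESC and at 20.4 ± 1.15 CPM in WT NPC, fell in MLL2dTAG NPC to 8.98 ± 0.796 CPM (log2 fold change -1.19 [SE 0.09], adjusted p = 2.2e-13). The receptor gene Cxcr2 was too low to test.

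Cxcl10 (chr5:92346638-92348889) and Cxcl16 (chr11:70453983-70459984) went the other way: both were lower in edited ESC and higher in edited NPC. CXCL10 is an interferon-induced attractant of T cells that signals through CXCR3, and CXCL16 is a membrane-bound ligand of CXCR6. Cxcl10 stood at 0.799, 1.26 and 0.850 CPM in WT ESC, at 0.341, 0.0828 and 0.559 CPM in dCD ESC and at 0.220, 0.186 and 0.261 CPM in MLL2dTAG ESC. Both edited groups lay below every WT library and overlapped with each other (-1.55 [SE 0.45] and -2.11 [SE 0.46] against WT). The NPC values were 0.190, 0.213 and 0.279 CPM in WT, 0.675, 0.221 and 0.704 CPM in dCD and at 1.60, 1.46 and 1.83 CPM in MLL2dTAG. MLL2dTAG NPC lay above all other NPC libraries (2.81 [SE 0.41]). In dCD NPC, 1 library lay within the WT range, and the call for 1.20 (SE 0.47) was lost without WT NPC replicate 1 or 2 and without dCD NPC replicate 1 or 3 (adjusted p 0.0814 to 0.152, edgeR quasi-likelihood). It had too few counts to be tested with only the groups compared in the fit.

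Cxcl16 stood at 7.93, 6.80 and 5.95 CPM in WT ESC, at 3.67, 3.11 and 3.17 CPM in dCD ESC and at 1.91, 1.61 and 1.70 CPM in MLL2dTAG ESC. Its NPC values were 1.58, 2.26 and 1.90 CPM in WT, 2.52, 3.37 and 3.05 CPM in dCD and at 4.75, 4.66 and 4.88 CPM in MLL2dTAG. The order of the 3 genotypes was thus turned round between the stages, with no overlap at either stage. Its changes against WT were -1.04 (SE 0.16) and -1.98 (SE 0.16) in ESC and 0.63 (SE 0.17) and 1.30 (SE 0.16) in NPC. Exons of Zmynd15 on the opposite strand cover 18.3% of the exon bases of Cxcl16, and the sources used here do not say whether the counting used strand. Cxcr6, its receptor, averaged 0.358 to 0.563 CPM over the 6 groups and was not called in any of the 4 comparisons with WT. Cxcr3 had a mean of at most 0.00931 CPM in any group.

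Cxcl12 (chr6:117168535-117181367) was by level in CPM the leading chemokine of the list in both edited NPC groups. Its product guides migrating progenitor and blood cells through CXCR4 and is bound by the decoy receptor ACKR3. In NPC it stood at 10.03, 9.96 and 9.66 CPM in WT, at 33.3, 39.5 and 37.7 CPM in dCD and at 77.5, 79.5 and 81.3 CPM in MLL2dTAG. The 3 genotypes were far apart, with changes of 1.90 (SE 0.06) and 3.01 (SE 0.06). In ESC the levels lay close together, at 34.6 ± 0.328 CPM in WT, 31.3 ± 1.28 CPM in dCD and 39.2 ± 0.213 CPM in MLL2dTAG. WT NPC were below WT ESC by -1.81 (SE 0.06) in log2 fold change, and the edited NPC lay around or above the ESC levels. Its receptors were lower or not called: Cxcr4 fell in dCD NPC from 25.4 ± 1.50 to 15.3 ± 1.21 CPM (adjusted p = 7.4e-10, edgeR quasi-likelihood) and in MLL2dTAG NPC to 19.3 ± 0.318 CPM (adjusted p = 3.5e-05, same test). Ackr3 was 92.8 ± 1.35 CPM in WT NPC and fell to 43.5 ± 2.42 CPM in dCD (adjusted p = 2.7e-17, edgeR quasi-likelihood), while MLL2dTAG NPC were at 96.3 ± 2.92 CPM and were not called.

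Ccl25 (chr8:4325210-4360020), which codes for a thymus and gut chemokine that signals through CCR9, was lower in both lines at both stages. It stood at 11.8, 14.9 and 13.8, 10.7, 9.65 and 9.06 and 5.24, 4.59 and 4.62 CPM in WT, dCD and MLL2dTAG ESC, 3 libraries each. In NPC the corresponding values were 24.9, 24.3 and 24.5 CPM, then 21.1, 22.5 and 20.6 CPM, then 13.1, 12.3 and 12.8 CPM. The ranges were apart in all 4 comparisons, and the change was larger in MLL2dTAG (-1.51 [SE 0.10] in ESC, -0.95 [SE 0.08] in NPC) than in dCD (-0.48 [SE 0.09] and -0.20 [SE 0.07]). The call in dCD NPC was lost without the filter on low counts and without WT NPC replicate 1 or dCD NPC replicate 1 or 3. MLL2dTAG was lower than dCD directly, by -1.03 (SE 0.10) in ESC and -0.75 (SE 0.08) in NPC.

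Cxcl14 (chr13:56288643-56296551), an epithelial chemokine, averaged 3.12 ± 0.397 CPM in WT ESC and at most 0.987 CPM in any NPC group. In NPC it stood at 0.317, 0.426 and 0.642 CPM in WT, at 1.29, 0.938 and 0.733 CPM in dCD and at 0.771, 0.397 and 1.10 CPM in MLL2dTAG. Only dCD was apart from WT (1.07 [SE 0.33]), and that call was lost without dCD NPC replicate 1 (0.84, adjusted p = 0.0569, edgeR quasi-likelihood). Cx3cl1, the membrane-bound ligand of microglia, was 3.28 ± 0.766 CPM in WT ESC, 4.87 ± 0.182 CPM in dCD and 4.51 ± 0.199 CPM in MLL2dTAG. In NPC it was 2.27 ± 0.336, 3.59 ± 0.194 and 2.41 ± 0.0744 CPM in the same order, with the MLL2dTAG range overlapping that of WT. The 4 remaining chemokines, Ccl5, Ccl9, Ccl17 and Ccl20, averaged at most 0.176 CPM in any group.

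**Figure D2:**
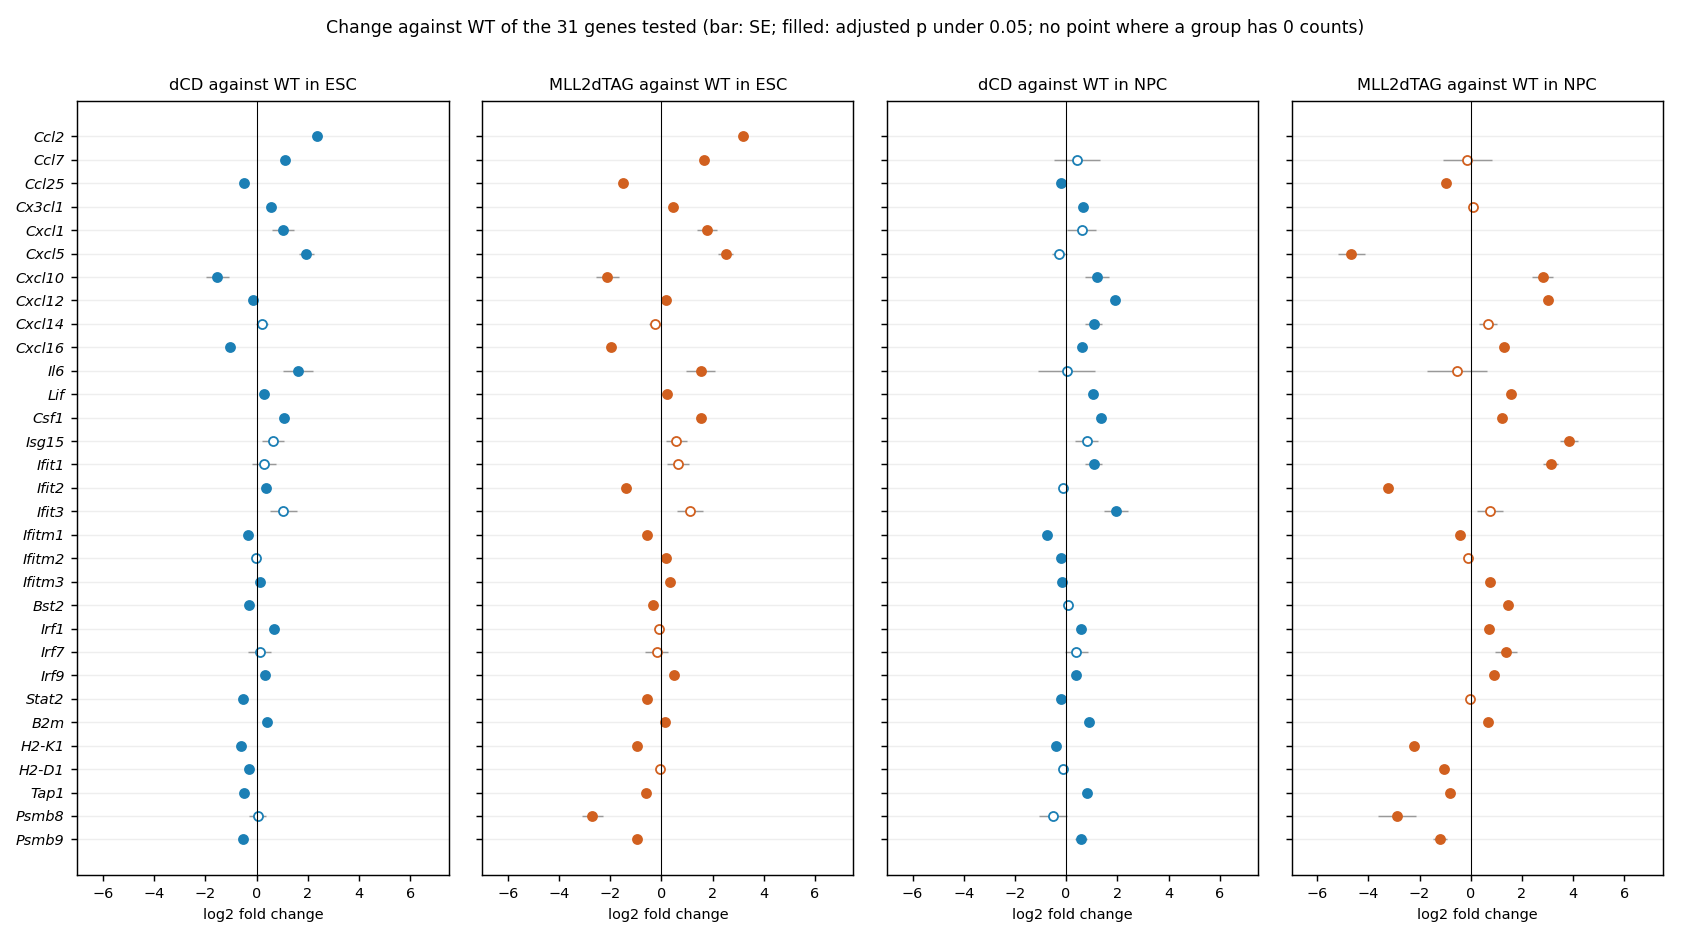
Log2 fold change against WT of the 31 genes tested, in 4 panels by line and stage; bars are SE, filled points were called at an adjusted p under 0.05, and no point is drawn where a group had 0 counts. Cxcl10, Cxcl12 and Cxcl16 lie to the right in the NPC panels, and Ifit2, H2-K1 and Psmb8 to the left in the MLL2dTAG NPC panel.

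Of the chemokines outside the list, 19 were looked at and 7 had enough counts. In MLL2dTAG NPC 4 of the 7 were lower, where 28.4% of all genes were, and the others were not called. The median log2 fold change of the 7 was -1.32 against 0.03 over all genes. In dCD NPC 3 were higher and 2 lower, where 26.7% and 26.8% of all genes were. Cxcl13, a B cell attractant, had 0 counts in WT ESC and stood at 3.01 ± 0.557 CPM in WT NPC, where it fell to 0.960 ± 0.223 CPM in dCD and 0.607 ± 0.340 CPM in MLL2dTAG (adjusted p = 6.1e-05 and 6.2e-07, edgeR quasi-likelihood). Of 22 chemokine receptors 9 were tested. In dCD NPC 4 of them were lower, where 26.8% of all genes were, and the others were not called.

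The cytokine genes Csf1 and Lif were higher in both edited NPC groups. CSF1 is the growth factor of macrophages, and LIF maintains mouse embryonic stem cells through LIFR and GP130 (Il6st). Per the labels' protocols the cells were grown with LIF protein, which does not add to RNA counts. Csf1 (chr3:107741048-107760469) stood at 21.2, 23.2 and 22.3 CPM in WT ESC, at 51.4, 50.2 and 39.3 CPM in dCD ESC and at 61.7, 67.5 and 66.5 CPM in MLL2dTAG ESC. Among NPC libraries, Csf1 was at 31.7, 33.4 and 31.7 CPM in WT, at 82.2, 82.6 and 82.8 CPM in dCD and at 75.0, 74.5 and 77.6 CPM in MLL2dTAG. Every edited library was above every WT library of its stage, by 1.07 (SE 0.07) and 1.55 (SE 0.07) in ESC and by 1.35 (SE 0.06) and 1.23 (SE 0.06) in NPC.

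Lif (chr11:4257557-4272514) was nearly level in ESC, at 7.57 ± 0.246, 9.10 ± 0.152 and 8.71 ± 0.318 CPM in WT, dCD and MLL2dTAG. In NPC it stood at 8.45, 8.12 and 8.24 CPM in WT, at 17.8, 17.0 and 17.1 CPM in dCD and at 23.4, 24.6 and 25.1 CPM in MLL2dTAG. The NPC groups were apart from each other, with changes of 1.07 (SE 0.07) and 1.56 (SE 0.07) against WT. Il6, the inflammatory cytokine of the same receptor family, was lower by an order of magnitude: 0.219 ± 0.0942 CPM in WT ESC, 0.652 ± 0.237 CPM in dCD ESC and 0.608 ± 0.0629 CPM in MLL2dTAG ESC. Its NPC means were at most 0.0389 CPM.

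Some receptor genes of LIF, IL-6 and related cytokines were also higher in edited NPC. Lifr rose from 89.6 ± 4.87 CPM in WT NPC to 198 ± 10.9 CPM in dCD and 266 ± 5.50 CPM in MLL2dTAG (adjusted p = 2.3e-20 and 1.1e-24, edgeR quasi-likelihood). Il6st rose from 161 ± 1.09 to 274 ± 6.10 and 333 ± 2.46 CPM. In dCD NPC Osmr, the oncostatin M receptor, rose by 3.54 (SE 0.14) and Il6ra, the IL-6 receptor, by 3.21 (SE 0.24). In MLL2dTAG NPC Osmr rose by 1.43 (SE 0.17), while Il6ra was at 0.630 ± 0.07996 CPM against 0.485 ± 0.191 CPM in WT and was not called. Of 12 cytokine and interferon receptors tested, 8 were higher and 2 lower in dCD NPC, where 26.7% and 26.8% of all genes were. In MLL2dTAG NPC 8 were higher and 1 lower, against 33.3% and 28.4% of all genes.

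Csf1r, the receptor of CSF1, rose in MLL2dTAG NPC from 0.706 ± 0.0191 to 3.15 ± 0.879 CPM (log2 fold change 2.16 [SE 0.30], adjusted p = 1.2e-07, edgeR quasi-likelihood) and was 0.487 ± 0.0718 CPM in dCD NPC. It is also 1 of 12 macrophage and blood cell markers. Of the 8 tested, 5 were higher and 1 lower in MLL2dTAG NPC, where 33.3% and 28.4% of all genes were. That list summed to 6.01 to 6.54 CPM in WT NPC, 11.8 to 12.2 CPM in dCD NPC and 24.3 to 25.5 CPM in MLL2dTAG NPC, most of it Cd68 (18.1 CPM on average in MLL2dTAG). The pan-leukocyte gene Ptprc had 0 counts in all 9 NPC libraries. Adgre1, Tyrobp and Spi1 were also at 0 in WT NPC and at or under 0.0294 CPM on average in the edited NPC. In ESC the list summed to 62.8 to 67.4 CPM in WT and 103.9 to 104.2 CPM in MLL2dTAG, most of it Laptm5.

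Of the 8 interferon-stimulated effectors, Isg15, Ifit1, Bst2 and Ifitm3 were higher in MLL2dTAG NPC and Ifit2 and Ifitm1 were lower, where 33.3% and 28.4% of all genes were. ISG15 is a ubiquitin-like modifier, IFIT proteins bind viral RNA, and BST2 (tetherin) holds budding virus at the cell surface. The 200 bases upstream of the start of Isg15, Ifit1, Bst2 and Ifit2 are shown because their changes in MLL2dTAG NPC differed in direction. The sequences are from RefSeq on GRCm38.p6, 5′ to 3′ on the strand of the gene: Isg15 at chr4:156200819-156201018, minus strand; Ifit1 at chr19:34640689-34640888, plus strand; Bst2 at chr8:71537473-71537672, minus strand; Ifit2 at chr19:34550494-34550693, plus strand. Capitals mark every match to the ISRE letters, GAAA followed by any 2 bases and GAAA again, on either strand, and overlapping matches run together.
Isg15: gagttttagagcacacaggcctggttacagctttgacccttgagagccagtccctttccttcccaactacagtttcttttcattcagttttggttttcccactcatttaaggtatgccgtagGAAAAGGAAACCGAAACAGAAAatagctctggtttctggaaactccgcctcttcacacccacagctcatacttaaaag
Ifit1: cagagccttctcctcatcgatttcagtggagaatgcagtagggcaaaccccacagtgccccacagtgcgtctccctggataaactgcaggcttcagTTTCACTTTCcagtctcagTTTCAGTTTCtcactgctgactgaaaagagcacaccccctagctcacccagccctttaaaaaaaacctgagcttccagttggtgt
Bst2: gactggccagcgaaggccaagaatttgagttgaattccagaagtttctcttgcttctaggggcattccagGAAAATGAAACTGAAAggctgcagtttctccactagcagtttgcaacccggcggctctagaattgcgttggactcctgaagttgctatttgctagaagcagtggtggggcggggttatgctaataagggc
Ifit2: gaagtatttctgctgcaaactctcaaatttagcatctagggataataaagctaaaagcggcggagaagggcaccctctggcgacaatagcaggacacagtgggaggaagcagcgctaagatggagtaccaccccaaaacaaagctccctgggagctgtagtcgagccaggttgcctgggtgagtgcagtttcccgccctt

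The Isg15 stretch held 3 matches that overlap, whose first bases lie 78, 72 and 66 bases before the start. Ifit1 held 2, at 104 and 85 bases, and Bst2 held 2 that overlap, at 130 and 124 bases. No match was found in this window of Ifit2. Over the 300 bases around each start (250 before to 50 after), 3.44% of 32851 promoters in the RefSeq table held at least 1 match. So did 6 of the 9 promoters of the 8 effector genes. Beside Isg15, Ifit1 and Bst2, these were Ifit3 and Ifitm3 with 2 matches each and Ifitm2 with 1. Ifitm1 and Ifit2 held none. In MLL2dTAG NPC, Ifit3 and Ifitm2 were not called, Ifitm3 was higher and Ifitm1 lower. Whether matches go with the direction of a change was not tested. Over the whole list, 31 of the 37 genes had an entry, and 10 of their 36 promoters (27.8%) held 1; Ccl2, Ccl5, Ccl7, Ccl11, Cxcl5 and Cxcl16 had none. A match is a run of letters, not a shown binding site, and other spellings of the element were not searched.

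Isg15 (chr4:156199424-156200818) stood at 0.190, 0.133 and 0.223 CPM in WT NPC, at 0.307, 0.442 and 0.205 CPM in dCD NPC and at 2.97, 2.76 and 2.09 CPM in MLL2dTAG NPC. Ifit1 (chr19:34640871-34650009) stood at 0.506, 0.373 and 0.503, 0.982, 1.16 and 0.763 and 4.09, 3.97 and 4.02 CPM in the same groups. For both genes all MLL2dTAG libraries lay above all others, with changes against WT of 3.82 (SE 0.35) and 3.12 (SE 0.29). Against dCD the changes were 3.01 (SE 0.32) and 2.05 (SE 0.26). The dCD libraries of Ifit1 were all above WT (1.08 [SE 0.34]), and those of Isg15 overlapped with WT. In ESC, Isg15 averaged 0.317 to 0.507 CPM and Ifit1 0.331 to 0.542 CPM over the 3 genotypes, and neither was called in an edited line.

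Bst2 (chr8:71534255-71537456) stood at 8.26, 8.28 and 7.93 CPM in WT NPC, at 8.96, 8.06 and 8.80 CPM in dCD NPC and at 22.4, 23.5 and 21.2 CPM in MLL2dTAG NPC. WT and dCD overlapped and MLL2dTAG lay well above both (1.45 [SE 0.07] against WT). In ESC, Bst2 was several times as high, at 68.5, 66.1 and 71.1 CPM in WT, 55.0, 50.6 and 62.2 CPM in dCD and 53.2, 55.7 and 55.0 CPM in MLL2dTAG. There both edited groups lay below WT (-0.29 [SE 0.06] and -0.33 [SE 0.06]).

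Ifit2 (chr19:34550694-34576419) begins 90.2 kb before Ifit1 on chromosome 19 and showed the opposite change. It stood at 14.1, 13.8 and 14.3 CPM in WT NPC, at 13.8, 13.6 and 11.6 CPM in dCD NPC and at 1.69, 1.39 and 1.46 CPM in MLL2dTAG NPC. Every MLL2dTAG library was below every other NPC library (-3.22 [SE 0.13]), while the dCD range was just below that of WT and was not called (-0.11 [SE 0.10]). In ESC it stood at 3.41, 3.65 and 2.89 CPM in WT, at 3.84, 4.06 and 4.85 CPM in dCD and at 1.10, 1.55 and 1.15 CPM in MLL2dTAG, and MLL2dTAG was again the lowest group (-1.38 [SE 0.17]). Ifit3, which lies between them, was 0.210 ± 0.137 CPM in WT NPC, 0.818 ± 0.0626 CPM in dCD and 0.350 ± 0.139 CPM in MLL2dTAG, and its near-identical copy Ifit3b makes these values uncertain.

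The IFITM genes, which code for membrane proteins that block virus entry, had the highest levels of the list per length of exon in all 3 ESC groups, but not in NPC, where B2m lay above Ifitm1 and Ifitm3 in every group. Per kb of merged exon, WT ESC averaged 168 CPM for Ifitm1, 161.0 CPM for Ifitm2 and 119 CPM for Ifitm3, and WT NPC averaged 16.6, 117 and 30.8 CPM. Bst2 followed in WT ESC with 76.0 CPM per kb. Isg15, by contrast, was at 0.419 CPM per kb. On the CPM scale, Ifitm1 was 183 ± 9.64, 144 ± 4.59 and 126 ± 1.98 CPM in WT, dCD and MLL2dTAG ESC, and Ifitm3 was 20.9 ± 1.59, 18.7 ± 1.18 and 35.2 ± 0.847 CPM in the NPC groups. The largest change against WT in the 3 genes was 0.75 (SE 0.06) for Ifitm3 in MLL2dTAG NPC. Exons of Gm45717 on the same strand cover 40.9% of the exon bases of Ifitm2, so its counts are uncertain.

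**Figure D3:**
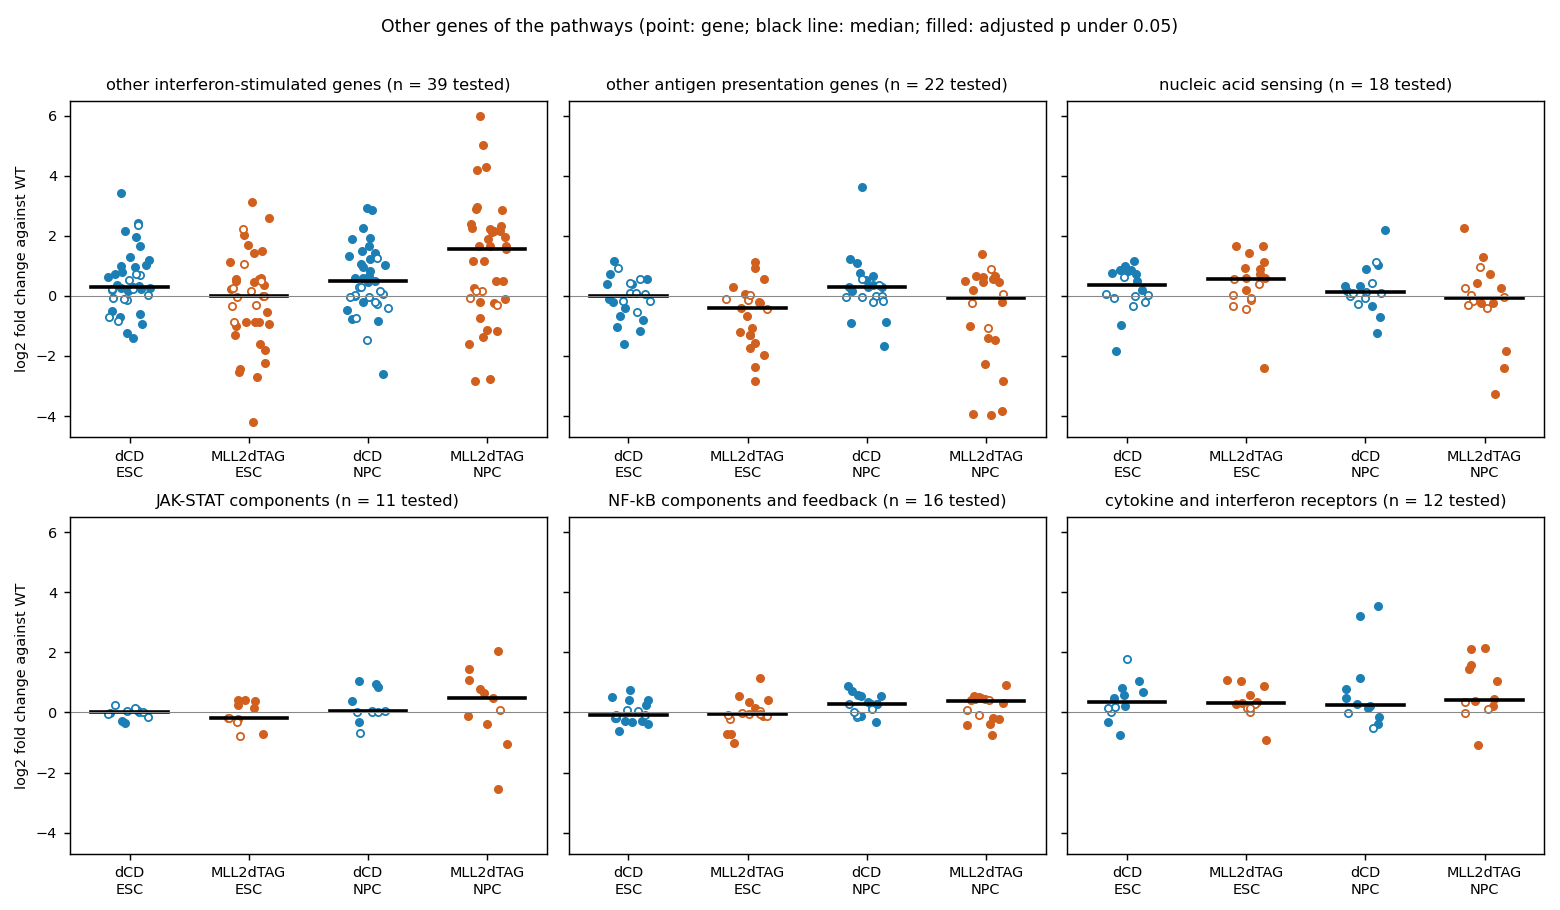
Log2 fold change against WT of the tested genes of 6 further lists (other interferon-stimulated and antigen presentation genes, nucleic acid sensing, JAK-STAT, NF-kB, and cytokine and interferon receptors); each point is a gene, black lines are medians, and filled points were called at an adjusted p under 0.05. The median of the interferon-stimulated genes stands at 1.55 in MLL2dTAG NPC.

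A list of 41 other interferon-stimulated genes, of which 39 were tested, was compared in the same way. In MLL2dTAG NPC 25 of the 39 were higher and 10 lower, where 33.3% and 28.4% of all genes were, with a median log2 fold change of 1.55 against 0.03 over all genes tested. In dCD NPC 20 were higher and 5 lower (median 0.49), and in dCD ESC 20 higher and 6 lower (median 0.30). In MLL2dTAG ESC 14 were higher and 14 lower (median -0.01). The shares of all genes called higher and lower, in the same order, were 26.7% and 26.8%, 25.7% and 22.6%, and 28.7% and 28.2%. In MLL2dTAG NPC the antiviral gene Rsad2 rose from 0.229 ± 0.0536 to 4.52 ± 0.364 CPM (log2 fold change 4.28 [SE 0.31], adjusted p = 2.3e-14, edgeR quasi-likelihood). Ifi44 rose from 0.0997 ± 0.0782 to 6.31 ± 0.576 CPM (adjusted p = 2.3e-15, same edgeR test). Xaf1, an activator of cell death, rose by 4.18 (SE 0.11), the GTPase gene Mx2 by 2.88 (SE 0.32), and Oasl2, of the oligoadenylate synthetase family, by 2.33 (SE 0.18).

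Genes that fell there included Gbp7, a guanylate-binding protein gene, by -2.75 (SE 0.22), and Herc6, an ISG15 ligase gene, by -2.82 (SE 0.54). Parp9 and Dtx3l, which are neighbours and code for partner proteins, fell by -1.60 (SE 0.11) and -1.37 (SE 0.13). The same pair was at 10.2 ± 0.937 and 7.75 ± 0.503 CPM in WT NPC. The difference between the NPC and the ESC change was itself called for 30 of the 39 genes in MLL2dTAG, 22 higher in NPC and 8 lower, where 26.4% and 22.6% of all genes were. Members of the OAS and GBP families have close copies, so their single values are uncertain.

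Ifnb1, the interferon beta gene, had 0 counts in all 18 libraries. The receptor genes Ifnar1 and Ifnar2 were at 134 ± 2.25 and 19.0 ± 1.29 CPM in WT NPC, and in MLL2dTAG NPC Ifnar1 rose to 184 ± 5.16 CPM while Ifnar2, at 20.8 ± 0.776 CPM, was not called. Of 18 genes of nucleic acid sensing, 5 were higher and 5 lower in MLL2dTAG NPC, where 33.3% and 28.4% of all genes were. Ddx58, which codes for the RNA sensor RIG-I, rose in MLL2dTAG ESC from 24.4 ± 0.302 to 77.8 ± 3.05 CPM (log2 fold change 1.67 [SE 0.06], adjusted p = 3.8e-23, edgeR quasi-likelihood) and in MLL2dTAG NPC by 0.72 (SE 0.06). Its relative Ifih1, the gene of MDA5, fell in MLL2dTAG NPC from 1.43 ± 0.226 to 0.148 ± 0.0345 CPM (-3.26 [SE 0.41], adjusted p = 1.2e-08, same edgeR test).

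Among the transcription factors, Irf7 and Irf9 were higher in MLL2dTAG NPC. IRF7 drives the genes of type I interferons, and IRF9 is a DNA-binding partner of STAT2. Irf7 (chr7:141262706-141266481) was low, at 0.253, 0.586 and 0.559 CPM in WT NPC, 0.368, 1.16 and 0.323 CPM in dCD and 0.830, 1.55 and 1.28 CPM in MLL2dTAG. MLL2dTAG lay above WT (1.37 [SE 0.41]), but 1 dCD library lay within the MLL2dTAG range. Irf9 was 22.4 ± 0.603, 29.2 ± 0.867 and 42.1 ± 1.29 CPM in the NPC groups, with changes of 0.38 (SE 0.06) and 0.91 (SE 0.06). It was also higher in edited ESC (0.34 [SE 0.07] in dCD and 0.51 [SE 0.06] in MLL2dTAG).

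Irf1, an early interferon gamma target, was higher in dCD at both stages (0.66 [SE 0.06] in ESC and 0.57 [SE 0.06] in NPC) and in MLL2dTAG NPC (0.71 [SE 0.06]), and in MLL2dTAG ESC it was -0.09 (SE 0.06) and not called. Stat2 was lower in both ESC lines, at 92.5 ± 5.14 CPM in WT, 63.5 ± 4.53 CPM in dCD and 62.6 ± 0.327 CPM in MLL2dTAG. In NPC it was 52.5 ± 1.54, 46.3 ± 3.01 and 51.7 ± 1.53 CPM. Usp18, the feedback inhibitor of the interferon receptor, rose in MLL2dTAG NPC by 2.03 (SE 0.19) and was 0.01 (SE 0.21) in dCD NPC, not called. Irf8, an activator of myeloid genes, fell in all 4 comparisons, from 6.54 ± 0.656 CPM in WT ESC to 1.84 ± 0.248 and 1.24 ± 0.105 CPM, and from 2.19 ± 0.109 CPM in WT NPC to 0.929 ± 0.170 and 0.398 ± 0.139 CPM.

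Of 11 JAK-STAT components, 6 were higher and 4 lower in MLL2dTAG NPC and 4 higher and 1 lower in dCD NPC. Of 16 NF-kB components and feedback genes, 8 were higher and 5 lower in MLL2dTAG NPC and 9 higher and 2 lower in dCD NPC. For both lists, 33.3% and 28.4% of all genes were higher and lower in MLL2dTAG NPC, and 26.7% and 26.8% in dCD NPC. The NF-kB subunit gene Rela rose in all 4 comparisons, by 0.42 to 0.56 in ESC and by 0.35 to 0.49 in NPC. Nfkb2 fell in dCD and MLL2dTAG ESC (-0.61 [SE 0.07] and -0.73 [SE 0.06]) and rose in the NPC of both lines (0.27 [SE 0.07] and 0.55 [SE 0.07]).

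Of the 6 antigen presentation genes on the list, 5 were lower and 1, B2m, was higher in MLL2dTAG NPC, where 28.4% and 33.3% of all genes were. H2-K1 and H2-D1 code for classical class I heavy chains, and B2m for the light chain that both share. The 200 bases upstream of these 3 genes are shown because heavy and light chain differed in direction. They lie at chr2:122147487-122147686, plus strand, for B2m, at chr17:34000348-34000547, minus strand, for H2-K1, and at chr17:35262894-35263093, plus strand, for H2-D1 (RefSeq, GRCm38.p6). RefSeq and GENCODE starts can differ, and the H2-D1 stretch lies inside the GENCODE span of the gene given below. Capitals mark matches to the same ISRE letters and to the NF-kB (kB) consensus on either strand.
B2m: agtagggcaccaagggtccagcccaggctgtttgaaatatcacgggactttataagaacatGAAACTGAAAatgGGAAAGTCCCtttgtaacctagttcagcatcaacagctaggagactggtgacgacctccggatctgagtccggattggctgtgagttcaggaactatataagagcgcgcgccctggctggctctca
H2-K1: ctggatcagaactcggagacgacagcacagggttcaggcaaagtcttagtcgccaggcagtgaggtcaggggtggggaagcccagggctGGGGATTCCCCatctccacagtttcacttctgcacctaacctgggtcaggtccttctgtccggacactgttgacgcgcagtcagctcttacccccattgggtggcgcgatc
H2-D1: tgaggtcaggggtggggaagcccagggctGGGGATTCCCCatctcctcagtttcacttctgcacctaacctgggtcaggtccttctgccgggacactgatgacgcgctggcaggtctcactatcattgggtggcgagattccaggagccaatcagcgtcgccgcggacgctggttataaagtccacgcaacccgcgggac

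The B2m stretch held 1 ISRE match, 139 bases before the start, and 1 kB match at 126 bases. Those of H2-K1 and H2-D1 held no match to these exact ISRE letters. Each held 2 kB matches that overlap in a single run of letters, at 111 and 110 bases and at 171 and 170 bases. Other spellings of the ISRE were not searched, so the lack of a match does not show that H2-K1 and H2-D1 lack the element. Of all promoters in the table, 5.8% held a kB match.

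H2-K1 (chr17:33996017-34000347) stood at 60.3, 56.1 and 59.3 CPM in WT ESC, at 39.3, 36.4 and 39.7 CPM in dCD ESC and at 29.1, 31.4 and 30.00 CPM in MLL2dTAG ESC. Among NPC libraries, H2-K1 was at 44.8, 47.6 and 45.1 CPM in WT, at 35.3, 36.5 and 33.7 CPM in dCD and at 9.22, 10.7 and 9.44 CPM in MLL2dTAG. At both stages the order was WT, dCD, MLL2dTAG with no overlap, and the lowest group was MLL2dTAG NPC. The changes were -0.60 (SE 0.06) and -0.96 (SE 0.06) in ESC and -0.38 (SE 0.05) and -2.22 (SE 0.06) in NPC.

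H2-D1 (chr17:35262730-35267499) stood at 17.4, 19.5 and 19.3 CPM in WT NPC, at 15.8, 17.7 and 17.7 CPM in dCD and at 8.81, 9.96 and 8.64 CPM in MLL2dTAG. Only MLL2dTAG was apart (-1.03 [SE 0.08]). In ESC the means were 28.9 ± 1.19, 23.2 ± 1.997 and 28.0 ± 1.05 CPM, and only dCD was lower (-0.31 [SE 0.07]). B2m (chr2:122147686-122153083) was 39.6 ± 3.99, 51.9 ± 3.10 and 43.1 ± 2.04 CPM in the ESC groups and 58.0 ± 1.58, 109 ± 4.68 and 91.9 ± 0.671 CPM in the NPC groups. It was thus higher in both edited NPC lines (0.91 [SE 0.05] and 0.66 [SE 0.05]). Class I heavy chain genes are near-identical in places, so reads may be shared between them and their values are uncertain.

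Tap1, Psmb8 and Psmb9 lie side by side in the class II part of the locus and code for a subunit of the peptide transporter and for catalytic subunits of the immunoproteasome. Tap1 (chr17:34187553-34197225) stood at 14.6, 15.9 and 16.9 CPM in WT NPC, at 29.1, 26.7 and 28.8 CPM in dCD NPC and at 8.72, 9.34 and 9.05 CPM in MLL2dTAG NPC. Psmb9 (chr17:34181987-34187764) stood at 0.696, 0.852 and 0.698, 1.38, 1.08 and 0.909 and 0.297, 0.287 and 0.391 CPM in the same groups. For both genes dCD NPC lay above WT and MLL2dTAG NPC below it: the changes were 0.83 (SE 0.07) and -0.80 (SE 0.08) for Tap1, and 0.57 (SE 0.23) and -1.20 (SE 0.29) for Psmb9. The direct difference of MLL2dTAG from dCD in NPC was -1.64 (SE 0.08) for Tap1 and -1.78 (SE 0.27) for Psmb9. The call for Psmb9 in dCD NPC was lost with DESeq2, without the filter on low counts, with only the groups compared in the fit, with counts halved, with the replicate number as a block, and without WT NPC replicate 1 or 3 or dCD NPC replicate 1 or 2. They are divergent genes that share 212 exon bases.

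In ESC, Tap1 stood at 21.4, 21.4 and 18.9 CPM in WT, at 15.5, 13.9 and 14.4 CPM in dCD and at 14.6, 12.4 and 14.0 CPM in MLL2dTAG, with both lines below WT. Psmb9 stood at 5.43, 4.91 and 5.44, 3.50, 3.60 and 3.73 and 2.45, 2.76 and 2.90 CPM in the same ESC groups, which were all apart. Psmb8 (chr17:34197721-34201454) stood at 2.45, 1.76 and 2.52 CPM in WT ESC, at 1.92, 2.73 and 2.20 CPM in dCD ESC and at 0.403, 0.466 and 0.183 CPM in MLL2dTAG ESC. WT and dCD overlapped, and MLL2dTAG was below both (-2.69 [SE 0.40] against WT).

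In NPC, Psmb8 was near the limit of these libraries, at 0.411, 0.160 and 0.279 CPM in WT, 0.123, 0.386 and 0.0587 CPM in dCD and 0.0593, 0.0442 and 0 CPM in MLL2dTAG. MLL2dTAG lay below WT (-2.89 [SE 0.75]) and overlapped with dCD. Its difference from dCD was called, but not without dCD NPC replicate 2, where it was -1.30 (adjusted p = 0.276, edgeR quasi-likelihood), nor without MLL2dTAG NPC replicate 3 (-1.85, adjusted p = 0.0620, same test). With only the groups compared in the fit, Psmb8 had too few counts in NPC to be tested against WT or dCD. The antisense gene Gm20496 covers 14.7% of the exon bases of Psmb8. The catalytic subunits of the constitutive proteasome, Psmb5, Psmb6 and Psmb7, moved little: in MLL2dTAG NPC their changes were 0.39, -0.03 and 0.16, of which that of Psmb6 was not called.

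Of 24 other antigen presentation genes 22 were tested. In MLL2dTAG NPC 9 were higher and 9 lower, in dCD NPC 11 higher and 3 lower, in MLL2dTAG ESC 5 higher and 13 lower, and in dCD ESC 5 higher and 8 lower. The shares of all genes, in the same order, were 33.3% and 28.4%, 26.7% and 26.8%, 28.7% and 28.2%, and 25.7% and 22.6%. In MLL2dTAG NPC the heavy chain gene H2-Q4 fell from 21.6 ± 1.31 to 1.38 ± 0.122 CPM (log2 fold change -3.97 [SE 0.13], adjusted p = 1.2e-24, edgeR quasi-likelihood). H2-M3 fell from 5.35 ± 0.807 to 0.359 ± 0.167 CPM (-3.83 [SE 0.22]), while it rose in dCD NPC to 12.6 ± 1.64 CPM. Tap2, the partner subunit of TAP1, fell by -2.27 (SE 0.32), and the class II gene H2-Ab1 by -3.95 (SE 0.30). Calr, Canx, Pdia3 and Tapbp, which code for chaperones and the tapasin bridge of the loading complex, rose by 0.50, 0.47, 0.62 and 0.56. Nlrc5, the class I transactivator, was 0.0752 ± 0.0273 CPM in WT NPC and rose in dCD NPC to 0.992 ± 0.1001 CPM (3.64 [SE 0.49], adjusted p = 6.3e-08, edgeR quasi-likelihood), while MLL2dTAG NPC were at 0.0345 ± 0.0308 CPM.

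The stretch from H2-K1 to H2-M3, 3.278 Mb of chromosome 17, held 139 genes tested. In MLL2dTAG NPC 39 of them were higher and 45 lower (32.4%), where 33.3% and 28.4% of all genes were. The median log2 fold change was -0.03. In dCD NPC 25 were higher and 39 lower (28.1%), against 26.7% and 26.8% of all genes. Between H2-K1 and H2-D1, 19 of 77 genes were higher and 25 lower in MLL2dTAG NPC, against 33.3% and 28.4% of all genes. Around H2-Q4, further genes of the H2-Q family, which lay outside the lists used here, were called lower in MLL2dTAG NPC as well: the log2 fold change was -3.16 for H2-Q2, -3.65 for H2-Q5, -5.12 for H2-Q6 and -2.58 for H2-Q10. These genes were picked after their values were seen, and as near-identical copies their single values are uncertain. Close by, Pou5f1, which is also one of the ESC markers, was called higher there, by 4.72.

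**Figure D4:**
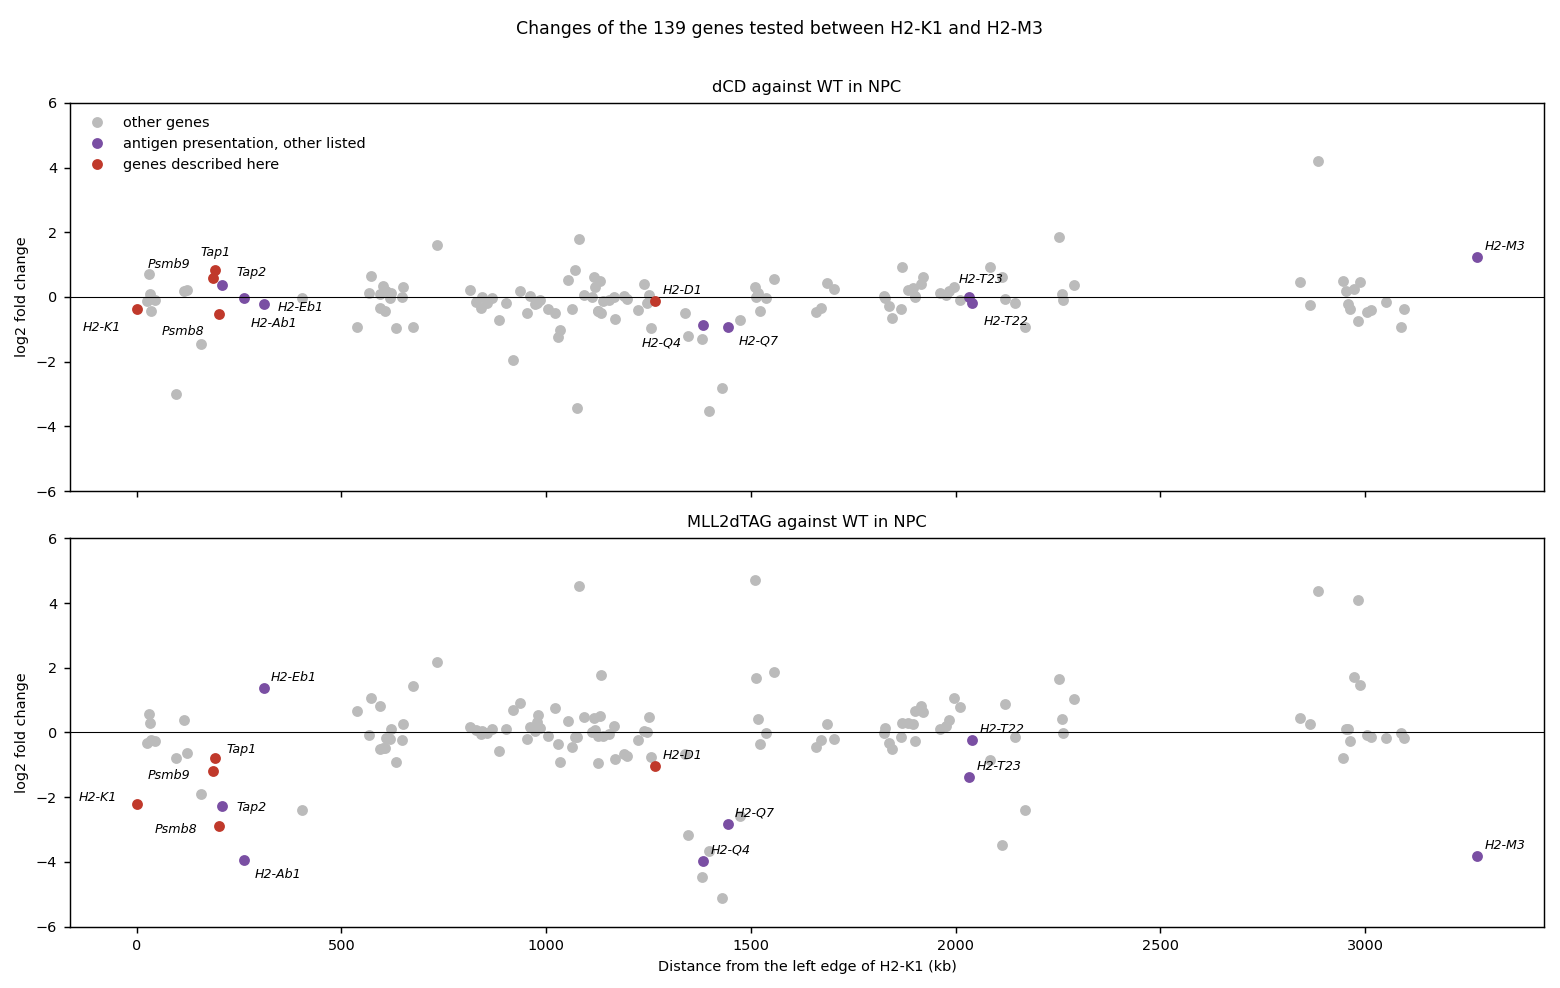
Log2 fold change in NPC of the 139 genes tested between H2-K1 and H2-M3, by distance from H2-K1 in kb, for dCD (upper panel) and MLL2dTAG (lower panel) against WT; red points are genes of the list, purple points other antigen presentation genes and grey points all others. In the lower panel H2-K1, Psmb8, Tap2, H2-Ab1, H2-Q4 and H2-M3 lie well below 0, as do grey points around H2-Q4 that include H2-Q2, H2-Q5, H2-Q6 and H2-Q10, while most other grey points lie near it.

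From WT ESC to WT NPC, 5 of the 31 genes tested were higher and 20 lower, where 39.1% and 40.4% of all genes were. The 5 were Ccl25, Csf1, Ifit2, Irf9 and B2m. Ccl2, with 148 counts in WT ESC and 0 in WT NPC, was 66.1-fold lower against a floor of 3 counts, with the ESC count taken as exact. Ifitm1 was lower by -3.33 (SE 0.05), Bst2 by -3.07 (SE 0.07), Psmb8 by -2.98 (SE 0.41) and Psmb9 by -2.80 (SE 0.20). Ifit2 was the gene with the largest gain (2.08 [SE 0.12]). Of the 39 other interferon-stimulated genes, 8 were higher and 22 lower in WT NPC.

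The change in an edited line differed between the stages for part of the list, as tested by the interaction of genotype and stage. In MLL2dTAG the NPC change was above the ESC change in 14 of the 31 genes and below it in 7, where 26.4% and 22.6% of all genes were. In dCD it was above in 11 and below in 4, where 20.0% and 22.9% of all genes were. Both lines also differed from each other. In NPC, MLL2dTAG was higher than dCD in 13 of the 31 genes and lower in 12, where 31.6% and 24.3% of all genes were. In ESC it was higher in 9 and lower in 8, where 23.4% and 23.7% of all genes were. In NPC all 6 antigen presentation genes were lower in MLL2dTAG than in dCD, although the call for Psmb8 rested on single libraries as given above.

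Markers of further cell types also moved in MLL2dTAG NPC, where 33.3% of all genes were higher and 28.4% lower. Of 10 ESC markers 9 were higher, and Dppa3, at 0 counts, was not called. Of 10 endoderm markers 9 were higher and 1 lower, with a summed level of 2460 to 2521 CPM against 1255 to 1293 CPM in WT NPC. Most of that sum was Sparc, at 1626 CPM on average against 832 CPM in WT NPC. Of 9 endothelial markers 5 were higher and 1 lower, with 227.2 to 231.6 CPM against 66.3 to 67.5 CPM in WT NPC, most of it Kdr (209 CPM on average against 59.5 CPM). The part of these cell types in the interferon and antigen presentation values was not tested.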

How the data were processed

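Per the submitters' processing notes, reads were counted with HTSeq. For these libraries the sources used here do not give aligner, genome build, annotation or strand setting. The values deposited by the authors are raw counts for each gene symbol. In all, 18 columns whose names match no single sample were not used. A planned comparison of the line with both edits was therefore not run, and an earlier set was not analysed here. Mitochondrial genes were at 0 counts throughout.

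Counts were fitted in R 4.3.3 with edgeR 4.0.16 (limma 3.58.1): filterByExpr by group, TMM factors, 1 quasi-likelihood fit over 18 libraries and 6 groups, and Benjamini-Hochberg adjustment over 20511 genes, called under 0.05. The SE was the log2 fold change divided by the square root of F. The fit was tested on simulated data. Total counts of 19430860 to 46041277 per library make 3 counts, the floor used for a count of 0, equal to 0.0662 to 0.1597 CPM. Intervals cover counting error only, as reads are not independent molecules. Folds against the floor cover that error only for the count of 0 and take the other count as exact.

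The genes, the 182 further pathway genes and the marker lists were chosen with earlier results of these data known. Values in every library are given for the 21 genes that averaged 1 CPM or more in some group and, in a comparison of lines within a stage, a call, a log2 change of at least 1 and no overlap between groups. Other genes named come from the lists and were picked after their values were seen. Of 51734 symbols 47624 matched GENCODE M21 (GRCm38), used for positions and exon lengths; promoters came from RefSeq (GRCm38.p6).
Alternatives were DESeq2 1.42.0, other scalings and filters, fits of the compared groups only, halved counts (between 60.8% and 66.5% of the low counts, 1 to 10, were even; above 1000 it was between 48.9% and 50.4%), a replicate block and each library left out.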

Additional observations from a re-analysis of the deposited data

Results flagged for a closer look

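For the genes below, the change against WT differed between the stages by the interaction test of edgeR's quasi-likelihood fit (adjusted p under 0.05 over all genes tested). Each value is the NPC change minus the ESC change in log2 fold change. The genes were chosen with these values known, so they are a description, and no explanation was tested.

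Among the chemokines, Cxcl5 gave -2.20 in dCD and -7.17 in MLL2dTAG. Cxcl10 gave 2.74 and 4.92, Cxcl12 gave 2.04 and 2.83, and Cxcl16 gave 1.67 and 3.28 in the same order. In MLL2dTAG, Ccl25 gave 0.55 and Cxcl1 -7.10. The Cxcl1 value depends on the prior count of the fit, because MLL2dTAG NPC had 0 counts, and is no bound. Among the cytokines, Lif gave 0.80 in dCD and 1.36 in MLL2dTAG, and Csf1 gave 0.28 and -0.32, small beside its changes within each stage.

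Among the interferon genes, Ifit2 gave -0.48 in dCD and -1.84 in MLL2dTAG, and Bst2 gave 0.37 and 1.78. In MLL2dTAG, Isg15 gave 3.23, Ifit1 2.48 and Irf7 1.55. Among the antigen presentation genes, H2-K1 gave 0.22 in dCD and -1.26 in MLL2dTAG, H2-D1 gave -0.99 in MLL2dTAG, and in dCD Tap1 gave 1.33 and Psmb9 1.11.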

How the results depend on the processing

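Over 27 alternatives, 56 changes of single genes gave 1505 values, of which 1482 kept their direction and their side of the threshold, 23 lost the call and 0 reversed. The losses concern Ccl2, Cxcl10 and Cxcl14 in dCD NPC, Cxcl1 in dCD ESC and Psmb8 between both lines in NPC. With only the groups compared in the fit, 7 further values could not be had, since Ccl2 in both NPC lines, Cxcl10 in dCD NPC, and Cxcl1 and Psmb8 in MLL2dTAG NPC against WT and dCD fell under the filter on low counts. Of 1161 recomputed counts, 1160 stayed within 1.5 times: the exception was the number of further pathway genes lower in dCD NPC, which ranged from 14 (without dCD NPC replicate 3) to 23 with each library left out. Same-numbered replicates did not vary together (correlation at most 0.0573), so the numbers pair nothing. With a replicate block, 12 genes were higher and 11 lower in dCD ESC, 11 and 11 in MLL2dTAG ESC, 14 and 6 in dCD NPC, and 14 and 10 in MLL2dTAG NPC. Over all alternatives, 9 to 13 genes of the list were higher in dCD ESC and 9 to 14 in MLL2dTAG ESC. In NPC, 11 to 15 were higher in dCD and 13 to 15 in MLL2dTAG. The numbers lower ranged from 10 to 11, 11 to 12, 4 to 6 and 9 to 11 in the same order. No other scaling moved the median of all genes by over 0.1. Among calls that enter the counts of genes higher or lower, some of Lif, Il6, Irf1, Irf7, Irf9, Stat2, Psmb9, Cxcl12, Cxcl5, Cx3cl1, Ccl25, Ifitm2, Ifitm3, Ifit2, Ifit3 and B2m were also lost in at least 1 alternative. The cause was not tested.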

Other observations

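Cytokine genes outside the list also differed in NPC. Of 16 such genes 11 were tested. In dCD NPC 5 were higher and 1 lower, where 26.7% and 26.8% of all genes were. In MLL2dTAG NPC 3 were higher and 2 lower, against 33.3% and 28.4% of all genes. Il33, an alarmin, rose from 4.30 ± 0.0839 CPM in WT NPC to 8.97 ± 0.456 CPM in dCD and 23.3 ± 1.04 CPM in MLL2dTAG (adjusted p = 2.8e-09 and 8.4e-20, edgeR quasi-likelihood). Kitl, the ligand of KIT, rose from 19.7 ± 0.414 to 27.9 ± 1.52 and 59.98 ± 2.85 CPM. Clcf1, a cytokine of the IL-6 family, fell from 22.7 ± 2.14 to 9.39 ± 0.635 and 9.15 ± 0.628 CPM. Il7, a lymphocyte growth factor, was higher in dCD NPC (1.97 [SE 0.39]) and lower in MLL2dTAG NPC (-2.89 [SE 0.71]).

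Outside the 37 genes and the 182 further pathway genes, 21 tested genes held 2 or more ISRE matches in their promoter. Genes of the marker lists were not left out. In MLL2dTAG NPC 10 of them (47.6%) were higher and 6 (28.6%) lower, where 39.3% and 30.4% of the 12513 tested genes with no match were. The genes with no match still include genes of the lists. Of the 431 genes with at least 1 match, chosen outside the same 2 sets, 32.9% were higher and 35.5% lower. These shares are given with no test.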
